A study of Rattus norvegicus with 12 samples.

Results

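The genes described here carry the symbols of cytosolic ribosomal proteins, with some paralogs and pseudogenes among them. They were chosen by symbol alone: every probe set that the array annotation assigns to exactly 1 gene, with a symbol that starts with Rpl or Rps and a digit, or that is Rplp0, Rplp1, Rplp2, Rpsa or Fau, was taken, and the Rps6k and Rps4y symbols were left out. This gave 56 probe sets for 49 genes, of 14217 genes with such a probe set on the array. No measured value entered the choice of members, but the family was picked with the comparison of the groups already known, so its counts and adjusted p-values describe it and are not independent support. Signals were read in 12 male Sprague-Dawley rats, 8 weeks old, from total RNA of the left hemisphere, 1 array per rat. Of these, 7 had undergone transient occlusion of the middle cerebral artery (MCAO, a stroke model) and 5 a sham operation (Sham). The hemisphere was removed 24 h after reperfusion, and whether it was the occluded side is not stated in the labels. Each sample is a whole hemisphere, so a larger number of cells of a type and more RNA of these genes per cell cannot be told apart. As a check of the tissue, the log2 signal of the neuronal gene Snap25 in Sham was 13.31 ± 0.03 (SD, n = 5). The myelin gene Mbp was listed at 13.62 on all arrays, a near-constant value that allows no comparison.

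A ribosome is built from rRNA and a fixed set of proteins, in a small subunit that reads the mRNA and a large subunit that joins amino acids. Mammalian cells make these proteins in matched amounts from single-copy genes, beside many processed pseudogenes. Their mRNAs belong to the TOP class, which begins with a cytosine and a run of pyrimidines (5′ terminal oligopyrimidine tract) and whose translation depends on the kinase mTOR. In brain, ribosomal proteins are made in every cell type, and much of the neuron's protein synthesis depends on them.

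All 40 ribosomal protein genes with a varying signal were higher in MCAO by the test across all genes, and 0 were lower. The median log2 change was 0.47, a 1.39-fold difference, and the changes ran from 0.26 (Rps29) to 1.24 (Rps27l). The background was 35.2% of all 6339 varying genes higher and 34.2% lower, and over all genes tested 22.2% higher, 22.1% lower and 44.3% in either direction (limma, Benjamini-Hochberg adjustment over 12153 genes). The median log2 change of all varying genes was 0.03. A rise of at least 1.2-fold was seen in 39 members, against 26.9% of all varying genes, and one of at least 1.5-fold in 10, against 9.61%. The adjusted p-values of the 40 genes in that limma fit lay between 0.0011 and 0.0173. These genes were read on the same 12 arrays and moved with each other, so 40 calls are not 40 independent observations. Among other varying genes with a mean log2 signal above 11, where most of the family lies, 21.1% of 313 were higher and 46.6% lower by limma.

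The remaining 9 genes gave no usable contrast. Varying means an SD over the 12 arrays of at least 0.01. Of the 46 genes that passed the filter on low signals (above 6.61 in at least 5 arrays), 6 were near-constant in the deposited values. They were Rpl26l1, Rpl28, Rpl30, Rpl37-ps2, Rpl39 and Rpl39l1, whose SD was at most 0.000479. Limma still called 3 of them higher, Rpl28, Rpl30 and Rpl39, with log2 changes of at most 0.00076, and these sizes are not interpreted. Rpl3l, Rps13 and Rps4x-ps1 did not pass the filter, and their probe sets were near-constant too. RefSeq lists Rpl37-ps2 and Rps4x-ps1 as transcribed pseudogenes. Each of the 40 varying genes also varied among the 5 Sham rats alone (lowest Sham SD 0.03, Rpl7l1). Each was above the filter in every Sham rat, the lowest single value being 7.05 for Rps27l, so none entered the test through the MCAO rats only.

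**Figure D1:**
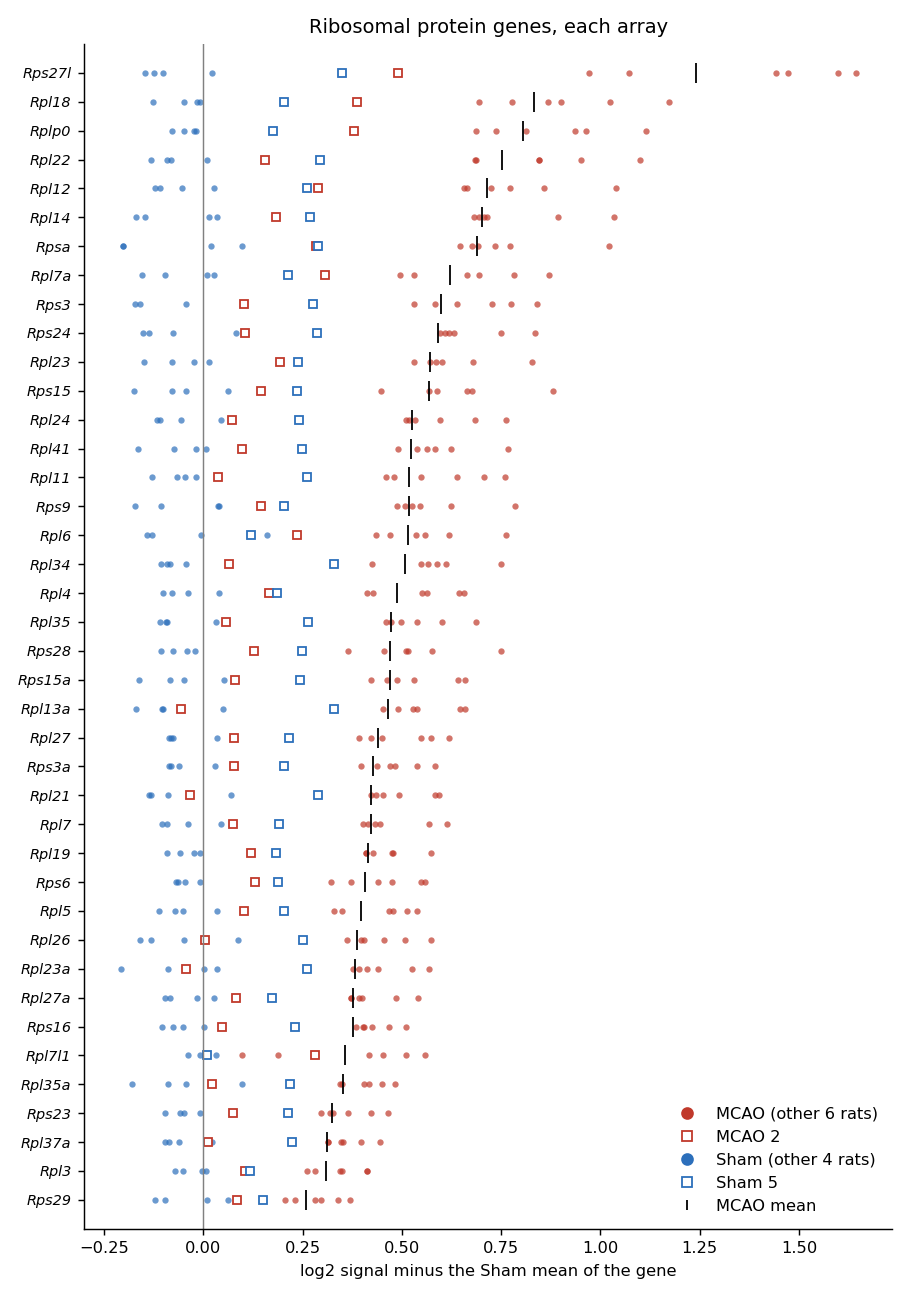
Each row is 1 of the 40 varying ribosomal protein genes, and the horizontal axis is its log2 signal in an array minus its Sham mean. Red marks are the 7 MCAO rats, blue marks the 5 Sham rats, open squares MCAO 2 and Sham 5, and the black tick is the MCAO mean; 6 MCAO rats lie above every Sham rat in all 40 genes, while MCAO 2 lies among or just above the Sham rats.

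The rise was clear in 6 of the 7 MCAO rats and small in MCAO 2. MCAO 2 had the lowest signal of the 7 in 39 of the 40 genes, and MCAO 4 in the other gene, Rpl7l1. In MCAO 2 the median difference of the 40 genes from their Sham means was 0.10, and only 7 genes exceeded the highest Sham rat. Of the 40 genes, 37 lay above their Sham mean in MCAO 2, and all 40 did so in Sham 5. In each of the other MCAO rats all 40 exceeded it, with medians of 0.48 (MCAO 1), 0.61 (MCAO 3), 0.47 (MCAO 4), 0.53 (MCAO 5), 0.67 (MCAO 6) and 0.47 (MCAO 7). Sham 5 was the highest Sham rat in 38 of the 40 genes, with a median difference of 0.23, while Sham 1 to 4 had medians of 0.03, -0.11, -0.09 and -0.05. Complete separation of the 7 MCAO from the 5 Sham rats was therefore seen in 7 genes, Rpl6, Rpl7a, Rpl7l1, Rpl12, Rpl18, Rplp0 and Rps27l. That is 7 of 40, close to the 17.9% of all varying genes that lay above, while 16.2% lay below. Complete separation was thus no more frequent in the family than among all varying genes. With MCAO 2 set aside, the other 6 MCAO rats lay above all Sham rats in 40 of 40 genes, where 27.3% of all varying genes do so. MCAO 2 was singled out because it was the lowest MCAO rat in 39 of these genes, so this contrast favours the family. It is a description and not independent support. Without MCAO 2 the median log2 change of the family was 0.54, and without Sham 5 it was 0.54 too, and all 40 calls were kept in both cases. A low MCAO 2 and a high Sham 5 were not particular to the family. For the mean of mitochondrial ribosomal protein genes, MCAO 2 was the lowest MCAO rat (-0.081) and Sham 5 the highest Sham rat (0.121). The same held for other TOP mRNAs (0.135 and 0.0963). The share of all varying genes with this order was not counted.

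Many promoters of the family hold a pyrimidine tract at or near the annotated start site, and TOP mRNAs begin with such a tract. As examples, 6 windows with a long tract are printed, and 3 without one, among them Rps27l and Rpl18, the genes with the largest changes. Sequences are RefSeq's on the rat build GRCr8, which held an entry for 42 of the 49 members (40 by gene ID, 2 by symbol) and 36 of the 40 varying ones. Each window runs 5′ to 3′ from 45 bases before the annotated start to the first 15 bases of the transcript. Capitals mark the longest run of C and T that touches the 10 bases before or the 15 bases after the start.
Rplp0 (chr12:46718376-46718435, minus strand): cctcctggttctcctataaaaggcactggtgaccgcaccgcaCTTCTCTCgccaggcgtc
Rpl22 (chr5:168117916-168117975, plus strand): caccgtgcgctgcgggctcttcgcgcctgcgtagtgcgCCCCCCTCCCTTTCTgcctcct
Rpl14 (chr8:129163575-129163634, plus strand): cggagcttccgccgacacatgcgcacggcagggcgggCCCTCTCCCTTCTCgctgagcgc
Rpl19 (chr10:83519019-83519078, plus strand): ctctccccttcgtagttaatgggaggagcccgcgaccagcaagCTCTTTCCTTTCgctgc
Rpl35 (chr3:43165907-43165966, minus strand): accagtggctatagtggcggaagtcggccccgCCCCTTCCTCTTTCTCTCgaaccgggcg
Rps15 (chr7:10068101-10068160, minus strand): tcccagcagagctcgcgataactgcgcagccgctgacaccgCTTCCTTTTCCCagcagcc
Rpl18 (chr1:105325225-105325284, plus strand): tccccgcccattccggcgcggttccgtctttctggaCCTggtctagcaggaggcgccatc
Rpl7l1 (chr9:21695673-21695732, plus strand): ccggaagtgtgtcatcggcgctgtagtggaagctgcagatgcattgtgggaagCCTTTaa
Rps27l (chr8:76443613-76443672, plus strand): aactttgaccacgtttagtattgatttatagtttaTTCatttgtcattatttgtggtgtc

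In Rpl35 the tract is 18 bases long, in Rpl22 15 bases, in Rpl14 14 bases and in Rplp0 8 bases, and it spans the annotated start in each. In Rps27l and Rpl18 the run in capitals has 3 bases, and in Rpl7l1 it has 5; longer runs that lie farther upstream in the window were not marked. A C exactly at the annotated start followed by at least 4 further C or T bases was present in 10 of 36 varying members (27.8%), against 2.63% of 33469 promoters in the table. All the printed windows with a long tract come from these 10 genes. Longer tracts that end before the start, such as the 24 bases in Rpl7a, were not printed. A run of at least 8 C or T bases within 20 bases of the start was present in 23 of 36 (63.9%), against 15.9% of all. Annotated starts can lie some bases from the main start used in brain, so an exact position at the start is a strict criterion. The 10 genes with the exact tract had a median log2 change of 0.49 and the 26 without it one of 0.50, and no test of this was made.

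Other short motifs were counted on both strands over the whole 300 bases. TCTCGCGA was found in 8 of 36 members (22.2%) and in 0.855% of all promoters. GGGCGG, the Sp1 box, was found in 21 of 36 (58.3%) against 33.1%, and GGAAG, the core of ETS factor sites, in 32 of 36 (88.9%) against 70.1%. AAGATGGC, a YY1 motif, was present in 4 (11.1%) against 3.17%. TATAAA was found in 4 (11.1%) against 14.2%, and CACGTG, the E-box bound by Myc, in 3 (8.33%) against 6.42%. The members' promoters held a median of 7.33 CpG per 100 bases against 2.33 in all promoters. TCTCGCGA, GGGCGG and CACGTG contain CpG, so their shares were not compared at equal composition. These are matches of letters and say nothing of binding in these brains. The 36 genes lie on 12 chromosomes, with at most 7 on any one of them.

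Among genes with a large subunit symbol (Rpl), all 27 varying ones rose, with a median log2 change of 0.47 and a range from 0.31 to 0.83. Rplp0 encodes the scaffold of the stalk that recruits elongation factors. Its log2 signal was 11.16, 11.18, 11.19, 11.12 and 11.38 in Sham 1 to 5, and in MCAO the lowest, median and highest values were 11.58, 12.02 and 12.32. The groups did not overlap, MCAO 2 was the lowest MCAO rat and Sham 5 the highest Sham rat. The change was 0.80 ± 0.11 (SE; 1.75-fold, limma adjusted p = 0.0011), the lowest adjusted p of the family. Rpl12, whose protein sits at the base of the same stalk, had Sham signals of 11.59, 11.44, 11.46, 11.51 and 11.83 and MCAO signals of 11.86 to 12.61 (median 12.29). Here too the groups did not overlap, although MCAO 2 at 11.86 and Sham 5 at 11.83 nearly met. The log2 change of Rpl12 was 0.71 ± 0.12 (SE, limma adjusted p = 0.00184). The other stalk genes, Rplp1 and Rplp2, had no probe set with that single symbol.

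Rpl18, which encodes a structural protein of the large subunit, showed the largest change after Rps27l. Its Sham signals were 10.69, 10.61, 10.72, 10.73 and 10.94, and its MCAO signals 11.12 to 11.91 with a median of 11.61. All MCAO rats were above all Sham rats, and the log2 change was 0.83 ± 0.12 (SE, 1.78-fold, limma adjusted p = 0.00127). Rpl7a had Sham signals of 11.90, 11.73, 11.79, 11.91 and 12.10 against 12.19 to 12.76 in MCAO (median 12.55), again without overlap, and rose by 0.62 ± 0.10 (SE, limma adjusted p = 0.00173). Rpl14 had Sham signals of 10.43, 10.23, 10.25, 10.41 and 10.67 and MCAO signals of 10.58 to 11.44 (median 11.11). Its groups overlapped, since MCAO 2 lay below Sham 5, and its log2 change was 0.70 ± 0.13 (SE, limma adjusted p = 0.00311).

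**Figure D2:**
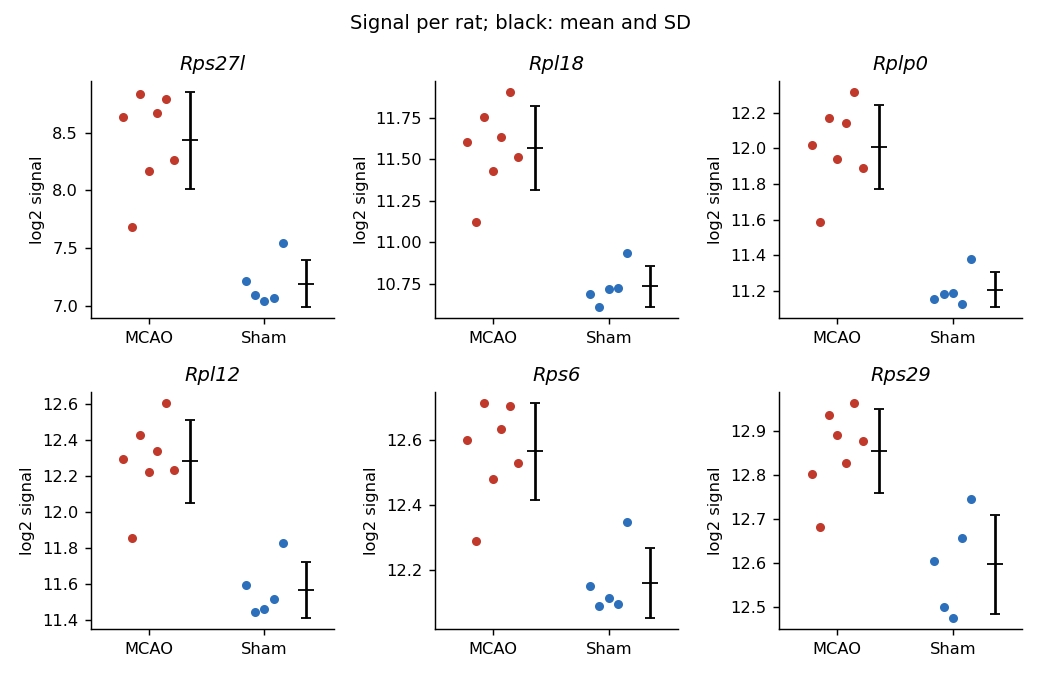
Log2 signal of 6 ribosomal protein genes, 1 point per rat (red, 7 MCAO; blue, 5 Sham), with the mean and SD of each group in black and an axis of its own for each gene. The groups are apart for Rps27l, Rpl18, Rplp0 and Rpl12, and for Rps6 and Rps29 only MCAO 2 reaches into the Sham range.

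Around the exit of the peptide tunnel, where nascent chains meet chaperones and the membrane translocon, 5 genes varied and all 5 rose. Rpl22 led them. Its Sham signals were 10.87, 10.73, 10.78, 10.77 and 11.15, its MCAO signals ran from 11.01 to 11.96 (median 11.70), and only MCAO 2 lay inside the Sham range. The log2 change of Rpl22 was 0.75 ± 0.15 (SE, limma adjusted p = 0.00348). Rpl35 (0.47), Rpl19 (0.41), Rpl26 (0.39) and Rpl23a (0.38) rose by less, and Rpl39, which lines the tunnel, was near-constant. Rpl23a had the highest adjusted p of the family (0.0173), and without Sham 4 it came to 0.047 (limma). Near the peptidyl transferase centre, Rpl4 rose by 0.49 ± 0.09 and Rpl3 by 0.31 ± 0.055 (SE). Rpl3 had Sham signals of 12.13, 12.05, 12.08, 12.12 and 12.24 and MCAO signals of 12.23 to 12.54 (median 12.47), where only MCAO 2 fell below the highest Sham rat.

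Rpl5 and Rpl11 form a particle with 5S rRNA that joins the large subunit and, when free, binds the p53 inhibitor Mdm2. Rpl5 had Sham signals of 11.99, 11.88, 11.90, 11.84 and 12.15 and MCAO signals of 12.05 to 12.49 (median 12.42), a change of 0.40 ± 0.08 (SE, limma adjusted p = 0.00413). Rpl11 had Sham signals of 11.63, 11.55, 11.66, 11.61 and 11.94 and MCAO signals of 11.71 to 12.44 (median 12.22), a change of 0.52 ± 0.12 (SE, limma adjusted p = 0.00684). In both genes MCAO 2 lay below Sham 5 and the other 6 MCAO rats above it. Of the genes fixed as Mdm2 binders, Rpl23 (0.57), Rpl26 (0.39) and Rps27l (1.24) rose as well. All 5 measured were higher, as was every varying gene of the family, so this count shows nothing particular to Mdm2 binders.

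Rps27l was the member with the largest change, 1.24 ± 0.20 (SE, 2.36-fold, limma adjusted p = 0.00176). It encodes a close relative of the small subunit protein Rps27 and is known as a p53 target. Its Sham signals were 7.22, 7.09, 7.05, 7.07 and 7.54, and its MCAO signals ran from 7.68 to 8.84 with a median of 8.64. No MCAO rat overlapped the Sham rats, and MCAO 2 was again the lowest and Sham 5 again the highest of its group. The p53 targets Cdkn1a, which encodes a cell cycle inhibitor, and Mdm2 rose by 0.95 ± 0.13 and 0.57 ± 0.10 (SE, limma adjusted p = 0.00118 and 0.00202). Mdm4, another p53 inhibitor, did not pass (-0.24, limma adjusted p = 0.123). Thus 2 of the 3 genes measured of that list were higher, beside 35.2% higher and 34.2% lower of all varying genes. A part of p53 in the change of Rps27l was not tested. Rps27 itself had no probe set of a single gene, and the difference between Rps27l and its parent was therefore not tested.

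The other 12 varying genes of the small subunit all rose too, with changes from 0.26 to 0.69. Rpsa, which is also known as the precursor of a laminin receptor, had Sham signals of 11.18, 10.88, 10.88, 11.10 and 11.37 and MCAO signals of 11.37 to 12.10 (median 11.77). MCAO 2 and Sham 5 had about the same value, and the change was 0.69 ± 0.12 (SE, limma adjusted p = 0.00248). Rps6, the substrate of S6 kinase in the mTOR pathway, had Sham signals of 12.15, 12.09, 12.11, 12.09 and 12.35 against 12.29 to 12.72 in MCAO (median 12.60). It rose by 0.41 ± 0.08 (SE, limma adjusted p = 0.00304), and MCAO 2 alone overlapped. At the decoding site and the mRNA entry, Rps3 (0.60), Rps15 (0.57), Rps9 (0.52) and Rps23 (0.32) all rose. Rps29 had the smallest change of the family, 0.26 ± 0.06 (SE), with Sham signals of 12.60, 12.50, 12.47, 12.66 and 12.74 and MCAO signals of 12.68 to 12.96 (median 12.88). Over the 46 varying probe sets of the family, large and small subunit together, the Spearman correlation of Sham mean and change was -0.31. Members with a higher signal thus tended to smaller changes, and the reason was not tested. Fau, a small subunit gene in the selection rule, had no probe set with that single symbol.

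Changes of the large and the small subunit ran side by side in each rat. The median difference from the Sham mean in MCAO 2 was 0.10 for both subunits, and in MCAO 6, the highest rat, it was 0.66 for the large and 0.75 for the small subunit. In Sham 5 the values were 0.22 and 0.24. The spread within MCAO was larger than within Sham in 38 of the 40 genes, and the share of all varying genes with this order was not counted. Over the 46 varying probe sets the median SD was 0.14 in Sham and 0.19 in MCAO, against 0.08 and 0.17 for all varying genes. A larger spread in MCAO was thus not particular to the family.

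Where a gene had several probe sets, these mostly gave like changes. The 3 probe sets of Rpsa changed by 0.69, 0.63 and 0.71, the 2 of Rpl3 by 0.31 and 0.29, the 2 of Rpl7 by 0.42 and 0.40, and the 2 of Rpl7l1 by 0.36 and 0.40. Rps24 and Rpl14 were exceptions. The second probe set of Rps24 had a mean of 6.87 in Sham and a change of 0.12 ± 0.09 (SE) that did not pass (limma adjusted p = 0.29), against 0.59 for the first. The second probe set of Rpl14 was near-constant at 6.63. Over all 17238 tested probe sets, 45 of the 46 varying members were higher and 0 lower, where 37% of varying probe sets were higher and 30.7% lower.

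The strict demand for 1 gene per probe set leaves out much of the family, because the annotation pairs many ribosomal protein probe sets with pseudogenes or copies. Another 37 probe sets list such a symbol among several genes and are left unnamed here. Of the 36 that could be tested, all 36 varied and were higher in MCAO, with log2 changes from 0.34 to 0.80 and a median of 0.51. In the fit that included several-gene probe sets, 37.8% of all varying probe sets were higher and 30.2% lower. In 3 of the 36, all 7 MCAO rats were above all 5 Sham rats. The share of all varying probe sets of that fit was not counted, and among varying genes of the main fit it was 17.9%. The signals of a functional gene and of its copies cannot be told apart on such probe sets.

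Of the 7 pairs of a ribosomal protein gene and its paralog that were fixed for comparison, 1 could be tested, Rpl7 and Rpl7l1. Rpl7 had Sham signals of 11.88, 11.73, 11.74, 11.80 and 12.03 and MCAO signals of 11.91 to 12.45 (median 12.27), with MCAO 2 inside the Sham range. Rpl7l1 had Sham signals of 8.86, 8.84, 8.82, 8.79 and 8.84 and MCAO signals of 8.93 to 9.39 (median 9.24), with no overlap. The change of Rpl7l1 minus that of Rpl7 was -0.06 (within-array SD 0.19 in MCAO, n = 7, and 0.12 in Sham, n = 5). An exact two-sided permutation test over 792 splits gave p = 0.52, and a difference between the pair was not shown. Unlike 39 of the 40 genes, Rpl7l1 was not lowest in MCAO 2, where it stood at 9.11.

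Genes of other lists tied to the ribosome were set beside the family. Of 14 varying genes of other TOP mRNAs, mostly translation factors, 12 were higher and 1 lower, with a median log2 change of 0.36. The elongation factor gene Eef1g rose by 0.33 ± 0.04 and Rack1, a scaffold on the small subunit, by 0.48 ± 0.07 (SE, limma adjusted p = 0.00105 and 0.00123). The helicase gene Eif4a2 fell by 0.14. Of 31 varying ribosome biogenesis genes 30 were higher and 0 lower, with a median of 0.41. Dkc1, the pseudouridine synthase of rRNA, rose by 0.62 ± 0.09, and Polr1c, a subunit of RNA polymerases I and III, by 0.35 ± 0.05 (SE, limma adjusted p = 0.00136 and 0.00149). Of 57 varying mitochondrial ribosomal protein genes 27 were higher, 0 lower and 30 did not pass, with a median of 0.18. These counts stand beside 35.2% higher and 34.2% lower of all varying genes, and no test of the differences between the lists was made.

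Of 17 varying genes of the mTOR pathway and of transcription factors for this family, 7 were higher, 5 lower and 5 did not pass, with a median log2 change of 0.12. These shares are near the 35.2% higher and 34.2% lower of all varying genes, and nothing is read from them. Myc, a transcription factor that drives ribosome production, rose by 1.93 ± 0.25 (SE, limma adjusted p = 0.000948), and all 7 MCAO rats were above all Sham rats. Its lowest MCAO signal was in MCAO 4 (7.45) and not in MCAO 2 (8.63), unlike most of the family. Mycn, on the same list, fell by 0.53 (SE 0.09, limma adjusted p = 0.00183), and all 7 MCAO rats were below all Sham rats. Tsc1, an inhibitor of mTOR, fell by 0.33 (SE 0.05, limma adjusted p = 0.00124). The gene of mTOR itself had a change of -0.19 that did not pass (limma adjusted p = 0.0522).

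**Figure D3:**
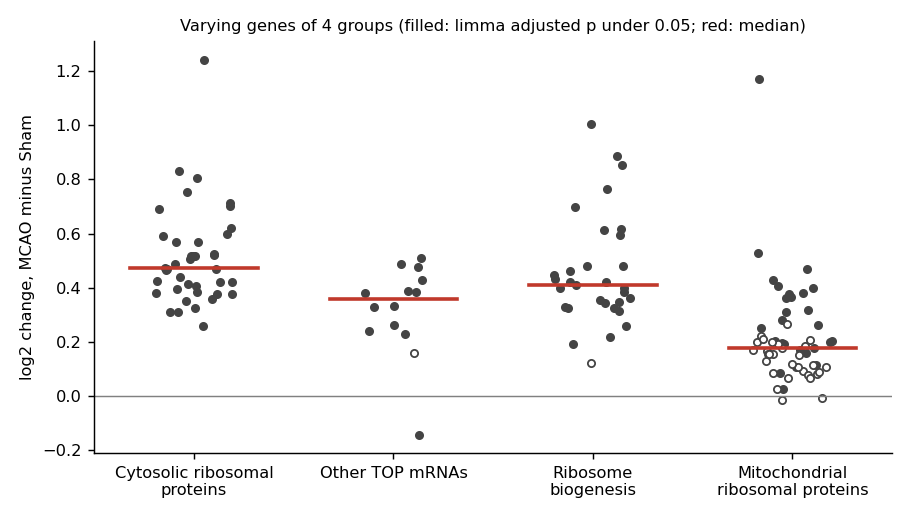
Log2 change (MCAO minus Sham) of the varying genes of 4 groups, 1 point per gene, filled where the limma adjusted p is under 0.05, with the median in red. The medians are 0.47 for cytosolic ribosomal proteins, 0.36 for other TOP mRNAs, 0.41 for ribosome biogenesis and 0.18 for mitochondrial ribosomal proteins.

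Other measures moved across the arrays together with the family, in part or in full. The array's control probe set for 5S rRNA had log2 signals of 8.17, 7.45, 7.19, 7.50 and 8.27 in Sham 1 to 5 and of 8.19 to 9.28 in MCAO (median 8.93). MCAO 2 was its lowest MCAO rat and Sham 5 its highest Sham rat, as in the family, and MCAO 2 alone fell below Sham 5. The difference was 1.15 (exact two-sided permutation test over 792 splits, p = 0.00505). What this control shares with the family's change was not tested. The 3′ minus 5′ signal of the actin controls, a measure of RNA integrity, was 1.27 to 1.47 in MCAO and 1.40 to 1.46 in Sham (exact permutation p = 0.0732), and in MCAO 2 it was 1.38.

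Markers of inflammatory cells moved with the groups as well. Of 11 varying microglia and macrophage markers 9 were higher and 2 lower, and their mean difference from Sham was 0.65 to 1.29 in MCAO and -0.08 to 0.15 in Sham. All 6 measured neutrophil and monocyte markers were higher (0.93 to 2.14 in MCAO, -0.09 to 0.12 in Sham). Of 12 neuron markers 1 was higher and 6 lower, and of 7 varying astrocyte markers 2 were higher and 4 lower. Of 6 varying oligodendrocyte markers 0 were higher and 2 lower, of 6 endothelial ones 3 higher and 1 lower, and of 6 fibroblast and meningeal ones 1 higher and 0 lower. Beside these marker counts, 35.2% of all varying genes were higher and 34.2% lower. MCAO 2 had the lowest value of both inflammatory lists among the MCAO rats, but stood clear of the Sham rats there, at 0.65 and 0.93, whereas its ribosomal protein genes did not. For ribosome biogenesis genes MCAO 2, at 0.33, and MCAO 4, at 0.18, were likewise above all Sham rats (highest 0.05). Other TOP mRNAs in MCAO 2, at 0.135, were also above all Sham rats (highest 0.0963). Mitochondrial ribosomal protein genes in MCAO 2, at -0.081, lay below all Sham rats (lowest -0.0692). The part of the marked cell types in the change of the family was not tested.

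**Figure D4:**
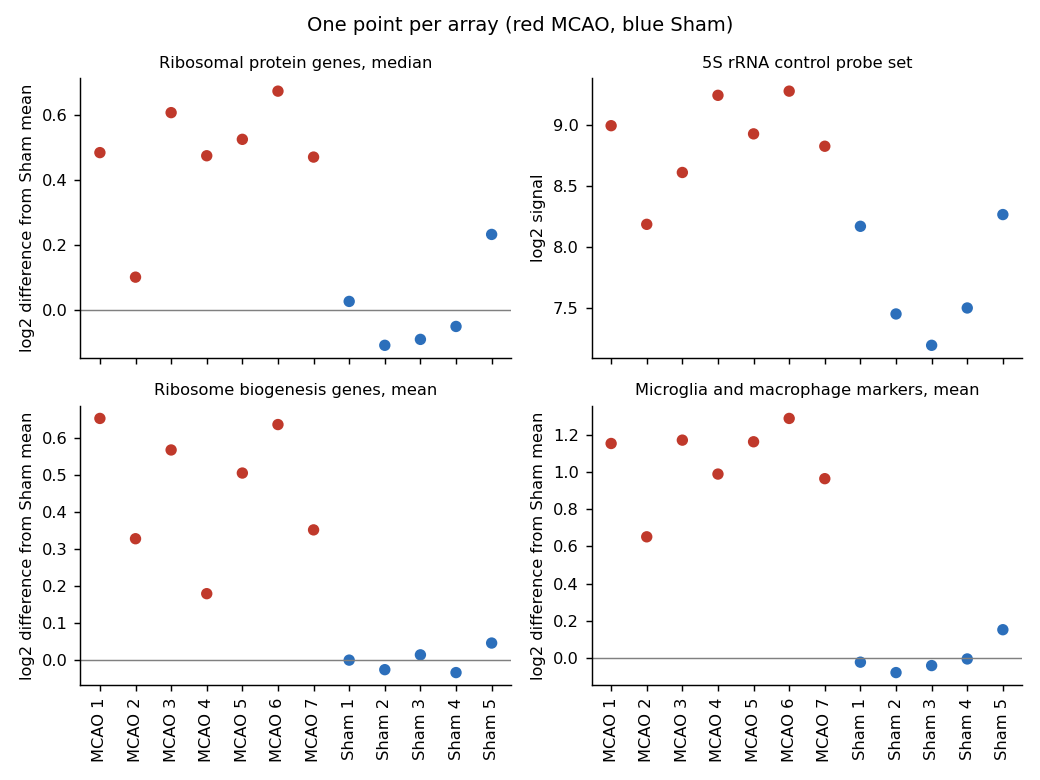
Values by array (red, MCAO; blue, Sham): the median difference of the 40 ribosomal protein genes from their Sham means, the log2 signal of the 5S rRNA control, and the mean differences of ribosome biogenesis genes and of microglia and macrophage markers. MCAO 2 lies at 0.10 in the first panel, below Sham 5 at 0.23, and above all Sham rats in both lower panels.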

How the data were processed

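Each of the 12 samples is 1 array. The labels' protocols describe cRNA with biotin, prepared from 100 ng total RNA. The deposited table gives 31099 probe sets as log2 values, as judged from their range, since the log base is not stated. For correction and normalization by the authors, no method is stated in the labels, and the number of arrays limits the precision. Array medians lay between 7.23 and 7.27, and no further scaling was applied. The table is near-constant (SD under 0.01) in 62.5% of its probe sets, and counts refer to the others unless all tested genes or near-constant members are named. The 57 controls of MCAO 6 were shifted by 12 positions and were realigned (40 of 40 near-constant controls then matched within 0.05, and 0 before).

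Probe sets of 1 gene that were above 6.61 (25th percentile) in at least 5 arrays were kept, and each gene was represented by the one with the highest mean, over all 12 arrays. Linear models were fitted in R 4.3.3 with limma 3.58.1 (eBayes, trend on), p-values are two-sided, and the Benjamini-Hochberg threshold was 0.05 over 12153 genes or 17238 probe sets. The script was first tested on simulated data. The p-values measure the spread between these rats. The members and the gene lists were chosen with earlier results of these data known. Named genes were the 8 largest rises and falls among called varying members, the fixed paralogs, stalk and 5S particle genes, Rps6 and Rpsa, and the 2 strongest genes of each related list; others were named after their values were seen, and 1 item is not reported here. Alternatives were other scalings, filters, probe set choices, moderation, array weights, a rank-sum test, a replicate block and each array left out in turn. The signal limit of 11, the count of separated genes without MCAO 2 and the several-gene probe sets were added after seeing the data.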

Additional observations from a re-analysis of the deposited data

Results flagged for a closer look

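In groups of 7 or 5 rats, a single rat far from the others was looked for in 50 sets of values, of which chance flags about 1 in 20. It was found in 7 of them, and each time the rat was MCAO 2 or Sham 5. MCAO 2 was low for the median of the family (0.10, the nearest MCAO rat at 0.47), Rpl14 (10.58, nearest 11.08), Rpl7 (11.91, nearest 12.24) and Rpl11 (11.71, nearest 12.14). Sham 5 was high for Rplp0 (11.38, nearest 11.19), Rpl11 (11.94, nearest 11.66) and Rps6 (12.35, nearest 12.15). These genes share their arrays and are not independent.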

How the results depend on the processing

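The count of 40 higher and 0 lower varying ribosomal protein genes was the same under quantile normalization, equal medians, equal 75th percentiles, the other filters, probe set choices, moderations, array weights and the exact rank-sum test, and without any 1 array. In these settings the median log2 change lay between 0.43 and 0.57, and leaving out each array gave 0.438 to 0.542 (main 0.47). With the replicate number as a block, over 10 arrays, 33 were higher, and without the block on the same 10 arrays 37 were (both with 0 lower and a median of 0.43). Rpl13a, Rpl21 and Rpl23a did not pass in either fit of these 10 arrays, and Rpl26, Rpl34, Rpl37a and Rps29 did not pass with the block only. Deviations of same-numbered rats correlated at 0.43, 0.65, -0.41, 0.01 and 0.32, and 3 of 5 correlated best with their own number, a hint from the data and not the design. Not every pair was above 0.1, so the numbers were not taken as pairing the rats. Including several-gene probe sets, an alternative chosen after seeing the data, gave 81 probe sets higher, by construction. The difference of Rpl7l1 from Rpl7 turned to 0.0166 (exact permutation p = 0.841) after quantile normalization, and with the replicate block it was -0.0257; leaving out each array gave -0.109 to -0.0186. Near-constant Rpl39 turned to -0.0125 with equal medians and -0.00646 with equal 75th percentiles. The actin 3′ minus 5′ difference (-0.0648) was -0.0827 to -0.0484 without single arrays, and without MCAO 4 it passed the threshold (-0.0827, exact permutation p = 0.00866); the cause was not tested. The number of arrays, 7 and 5, limits the precision.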
